A study of Mus musculus with 3 samples.

Results

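Levels of the Notch signalling genes in Pthrp-mCherry+ cells of mouse molars are described here for 10 genes chosen by name: the receptors Notch1, Notch2 and Notch3, the ligands Jag1, Dll1 and Dll4, and the target genes Hes1, Hey1, Hey2 and Heyl. All 10 were found among the 21446 gene identifiers shared by the 3 libraries. The cells came from mice that carry the Pthrp-mCherry knock-in allele, a reporter of the gene for parathyroid hormone-related protein, and no other allele or treatment. Cells pooled from mandibular molars were sorted for mCherry and sequenced as 1 library each at postnatal day 15 (P15), P25 and 8 weeks, so no age had a replicate and no difference between ages was tested. The labels call the sorted cells cementoblasts and precursors.

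Notch signalling passes between touching cells. A ligand of the Jagged or Delta-like family on 1 cell binds a Notch receptor on its neighbour, proteases then cut the receptor, and its intracellular domain enters the nucleus and joins the DNA-binding protein RBPJ. Genes of the Hes and Hey families, which encode repressors of transcription, are the best known targets. In vessels, Dll4 and Notch1 are used by endothelial cells and Notch3 by pericytes and smooth muscle cells (mural cells), whereas in skeletal and dental mesenchyme Jag1, Notch2 and Hes1 are known from osteoblast-lineage cells and progenitors.

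The members lie on several chromosomes of GRCm38 (mm10), all as protein-coding genes. Notch1 spans chromosome 2 from 26457903 to 26516663, Jag1 chromosome 2 from 137081456 to 137116644 and Dll4 chromosome 2 from 119325784 to 119335962. Notch2 spans chromosome 3 from 98013527 to 98150361 and Hey1 chromosome 3 from 8663359 to 8667256. Notch3 spans chromosome 17 from 32120820 to 32166852 and Dll1 chromosome 17 from 15367354 to 15376872. Hes1 spans chromosome 16 from 30064384 to 30067796, Hey2 chromosome 10 from 30832359 to 30842801 and Heyl chromosome 4 from 123233556 to 123249875. The genes for Notch1, Notch3, Jag1, Dll1, Hey1 and Hey2 are on the minus strand and the other members on the plus strand.

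Promoter sequences from RefSeq (GRCm38.p6, 250 bases before to 50 bases after the start site) were matched for 7 of the 10 members. Hes1, Hey1 and Heyl had no sequence and were not searched, so Hey2 was the only target gene searched. The letters GTGGGAA, the core recognised by RBPJ, were searched on both strands. Of 32851 promoters of the same length, 6.38% held them. Among the members with a promoter, Hey2 held 2 matches. The reverse complement began 207 bases before the start site. The motif as written began 4 bases before the start site and ran across it. Both are shown on the strand of the gene because Hey2 is a target whose level stood out in the Rgs5 gate described below, with the matched bases in capitals. The windows are chr10:30842973-30843002 and chr10:30842770-30842799 on the minus strand. The start site is that of RefSeq. The Hey2 span given above reaches 30842801, so the latter window lies within it.
Hey2 upstream match: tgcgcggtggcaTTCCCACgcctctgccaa
Hey2 start site match: ctgggctgcagcGTGGGAAagaacctccag
The 7 promoters other than that of Hey2, those of 6 members including both entries for Dll1, did not hold these letters within their 300 bases. A match is a description of the letters and not a measured binding site.

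Cells were gated by the unique molecular identifiers (UMIs) of marker genes. Cells with at least 5 Rgs5, 2 Pecam1, 5 Krt14 or 2 Ptprc UMIs, and not passing a minimum of another of these 4 genes, formed the Rgs5, Pecam1, Krt14 and Ptprc gates, meant to hold mural, endothelial, epithelial and immune cells. Among the other cells, those with at least 5 Ifitm5 UMIs formed the Ifitm5 gate, then those with at least 10 Ibsp UMIs the Ibsp gate, then those with at least 2 Hand2 UMIs the Hand2 gate, and the remainder is called the ungated rest. Ifitm5 and Ibsp encode a membrane protein and a matrix protein of mineralizing cells, and Hand2 encodes a transcription factor of the periapical mesenchyme. The Ibsp, Ifitm5 and Hand2 gates together are called the mesenchymal gates. Tests against them used the mean of their log-scale levels, each gate with equal weight, and not their pooled cells. Levels are CPM, UMIs of a gene scaled to a fixed total of UMIs, of the cells of a gate in a library, with Poisson 95% intervals that cover counting error only. They count 3′ ends and compare a gene between gates, not 1 gene with another.

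The P15 library held 12926 cells, that of P25 8971 and that of 8 weeks 5192, of 27089 in all. Median UMIs per cell were 14253.5, 15834 and 8712.5 in the same order. File headers name Cell Ranger 6.1.2 for P15 and 8 weeks and 6.0.1 for P25. The P25 file also lists 32293 genes against 22056 in each of the others, for a reason that is not given. The P25 age and its processing therefore cannot be told apart. The libraries shared 13 to 26 cell barcodes in pairs. The Rgs5 gate held 277, 50 and 55 cells in order of age, the Krt14 gate 2024, 1147 and 133, the Ibsp gate 1478, 1955 and 1395, the Ifitm5 gate 459, 682 and 200, and the Hand2 gate 209, 252 and 151. The Pecam1 gate held 171 cells at P15 but 9 and 6 later, and the Ptprc gate 753 and 196 cells but 19 at 8 weeks. Sums of fewer than 20 cells entered no test.

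The markers of the gates were checked against lists that left out the gating gene. The endothelial list summed to 3894 CPM in the Pecam1 gate at P15, the epithelial list to 3640 to 8020 CPM in the Krt14 gate, and the immune list to 57098 and 11069 CPM in the Ptprc gate at P15 and P25. The Rgs5 gate differed between ages. Its mural list, 7 genes, summed to 2259 CPM at P15 but to 490 and 516 CPM at the later ages, where the mesenchymal gates had 148 to 382 CPM over all ages. The mural potassium channel gene Kcnj8 stood at 325, 23.5 and 1.47 CPM there, while Ibsp, the gene of a mineralized matrix protein, stood at 2205, 7381 and 6669 CPM. At P15 the mural list was thus far above the mesenchymal gates, while at 8 weeks its sum lay nearer to them and Myh11, a smooth muscle myosin gene, was at 0. The Krt14 gate held Ibsp at 482 to 1103 CPM and Krt14 was found at 11.2 to 92.0 CPM in the Ibsp and Ifitm5 gates. The part of RNA from other cells in these levels was not tested.

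**Figure D1:**
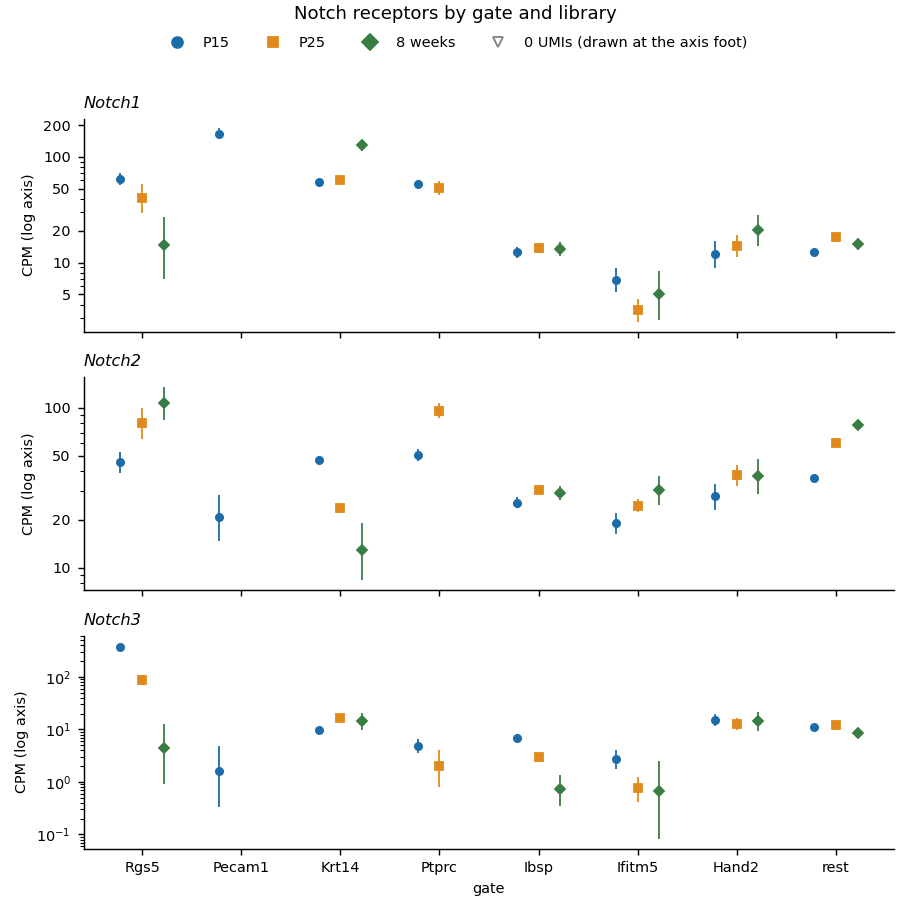
Levels of Notch1, Notch2 and Notch3 (CPM, log axis) in each gate (horizontal axis) and library (colours), with Poisson 95% intervals; sums of under 20 cells are not drawn and open triangles mark 0 UMIs. Notch3 reached 379 CPM in the Rgs5 gate at P15 and 86.0 CPM there at P25, above every other gate drawn, and 4.41 CPM at 8 weeks.

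Cells of the Rgs5 gate were compared with the mesenchymal gates, which asks whether the Rgs5 gate differs from them in the Notch genes. Its mural list was far above the mesenchymal gates only at P15, so the sums taken as its replicates differed in make-up. Of the 10 members, 7 were higher in the Rgs5 gate, where 3.63% of 14097 genes tested were higher and 0.489% lower. They were Notch3 and the other 2 receptors, the ligand Jag1, and the targets Hes1, Hey2 and Heyl. Hey2 passed the low-count filter only through the Rgs5 sums, so its call was bound to follow and the count is no support. The list of dissociation genes, such as Fos, stood at 12119, 14810 and 23217 CPM in the Rgs5 gate. It stood at 6122 to 9616 CPM in the mesenchymal gates and at 9785, 13582 and 22841 CPM in the ungated rest. Its part in these differences was not tested. Tests used edgeR on the sums of each gate and library, with the 3 ages standing in as replicates of a gate. The members and gates were chosen with earlier results of these data known, which the p-values do not take into account.

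Notch3, the receptor of mural cells, had 379 CPM (1435 UMIs) at P15, 86.0 CPM at P25 and 4.41 CPM (3 UMIs) at 8 weeks in the Rgs5 gate. In the mesenchymal gates it lay between 0.680 and 15.3 CPM. The log2 fold change was 5.09 ± 0.69 (SE; edgeR adjusted p = 0.00164). The Rgs5 gate was above all mesenchymal gates at P15 and P25, but at 8 weeks it lay below the Hand2 gate with its 14.6 CPM.

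Heyl, a Hey family target, followed the same course, with 145, 48.9 and 5.88 CPM in the Rgs5 gate against 0 to 22.2 CPM in the mesenchymal gates (log2 fold change 4.66 ± 0.58, edgeR adjusted p = 0.00103). Hey2, the target known from arteries, had 13.7 CPM at P15, 9.78 CPM at P25 and 0 UMIs at 8 weeks in the Rgs5 gate, and 0.362 to 1.95 CPM in the mesenchymal gates. It is described without a test. For these genes, too, the higher level was a feature of the P15 and P25 sums only.

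Jag1, a ligand, had 58.1, 46.9 and 42.7 CPM in the Rgs5 gate, and 9.34 to 14.7 CPM in the mesenchymal gates. The Rgs5 and mesenchymal sums did not overlap at any age, and the log2 fold change was 1.90 ± 0.17 (edgeR adjusted p = 1.08e-04). The ungated rest, outside this test, had 14.4, 39.5 and 42.9 CPM of Jag1, so it lay near the Rgs5 gate at the later ages. Notch1 had 62.0, 41.1 and 14.7 CPM there, the last within the mesenchymal range of 3.56 to 20.4 CPM (log2 fold change 1.88 ± 0.31, edgeR adjusted p = 0.00432). Hes1 had 222, 191 and 141 CPM, and its log2 fold change was 1.16 ± 0.23 (edgeR adjusted p = 0.0116). At 8 weeks, however, the Ifitm5 gate reached 211 CPM and the ungated rest 175 CPM. Notch2 had 45.7, 80.2 and 107 CPM, against 19.1 to 38.1 CPM (log2 fold change 1.25 ± 0.31, edgeR adjusted p = 0.0371). The ungated rest had 36.2, 59.8 and 78.0 CPM of Notch2. It lay below the Rgs5 gate but above the mesenchymal gates at each age. Of 14 alternatives, 9 kept the Notch2 call.

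Hey1 was not called, with 37.7, 48.9 and 19.1 CPM in the Rgs5 gate and a log2 fold change of 0.97 ± 0.31 (edgeR adjusted p = 0.0998), although DESeq2 called it (adjusted p = 0.0494). Dll1 had 1.06, 0.978 and 0 CPM and Dll4 0.264 CPM at P15 and 0 later, so both Delta-like ligands were at or near 0 in this gate. Without P25, 1 member (Jag1) and 6 genes in all were called, against 581 genes with it, while the log2 fold changes of Notch3 and Heyl were 5.19 and 4.59 (edgeR adjusted p = 0.132 and 0.118). Without P15, 3 members (Jag1, Notch2 and Heyl) and 252 genes were called, and Notch3 had a log2 fold change of 3.96 (edgeR adjusted p = 0.0605). Without 8 weeks, 267 genes were called. Notch2 lost its call with all UMI minima doubled and with an Rgs5 minimum of 20 UMIs alone, with log2 fold changes of 0.19 and 0.22.

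Within the Rgs5 gate, the members were read in cells binned by their Rgs5 UMIs. At P15, Notch3 stood at 65.4 CPM in 77 cells with 5 to 9 UMIs, at 328 CPM in 64 cells with 10 to 49, and at 647 CPM (610 to 687) in 136 cells with 50 or more. Heyl stood at 47.3, 176 and 209 CPM in the same bins, Jag1 at 15.8, 69.5 and 86.1 CPM, and Notch1 at 22.5, 69.5 and 89.6 CPM. Notch2 ran the other way, with 57.1, 49.8 and 34.8 CPM, and its intervals in the lowest and the highest bin did not overlap, although by a narrow margin (45.0 and 44.9). The bins with most Rgs5 were thus higher in Notch3, Heyl, Jag1 and Notch1 and lower in Notch2. Ibsp stood at 4648, 2654 and 86.7 CPM in these bins and Kcnj8 at 40.6, 305 and 557 CPM, so the bins also differed in markers of mineralizing and mural cells, and the part of this in the members' levels was not tested.

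At 8 weeks no cell had 50 or more Rgs5 UMIs and 50 of 55 cells had 5 to 9. In those 50 cells Notch3 had 0 UMIs, which allows up to 5.97 CPM by the Poisson interval, and Notch2 stood at 105 CPM. At P25 the 33 cells with 5 to 9 UMIs had 32.3 CPM of Notch3, and the 2 cells with 50 or more had 249 CPM (150 to 389). The libraries thus differed in how many Rgs5-rich cells the gate held, and the part of this in the age difference of Notch3 was not tested.

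Most cells of the Rgs5 gate with a Heyl UMI at P15 and P25 also had a Notch3 UMI. Of 277 cells at P15, 204 had a Notch3 UMI and 150 a Heyl UMI, and 146 had both. Of the 150 cells with Heyl, 4 lacked Notch3, and of the 204 with Notch3, 58 lacked Heyl. At P25, 20 of 50 cells had Notch3, 12 had Heyl and 10 had both. At 8 weeks these were 2, 2 and 1 of 55 cells. Cells with more UMIs show more genes, and the part of depth in this overlap was not tested. At P15, 268 cells had at least 3000 UMIs. Thinned to that number, 58.6% of them (Clopper-Pearson 95% interval 52.4 to 64.5%) had a Notch3 UMI. The thinned shares were 18% (8.58 to 31.4%) at P25 and 1.82% (0.0460 to 9.72%) at 8 weeks. The shares without thinning were 73.6%, 40% and 3.64%. In the Ptprc gate, which should lack Notch3, 0.867% of thinned cells had a UMI at P15, from a median of 10170 UMIs per cell against 11758 in the Rgs5 gate.

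**Figure D2:**
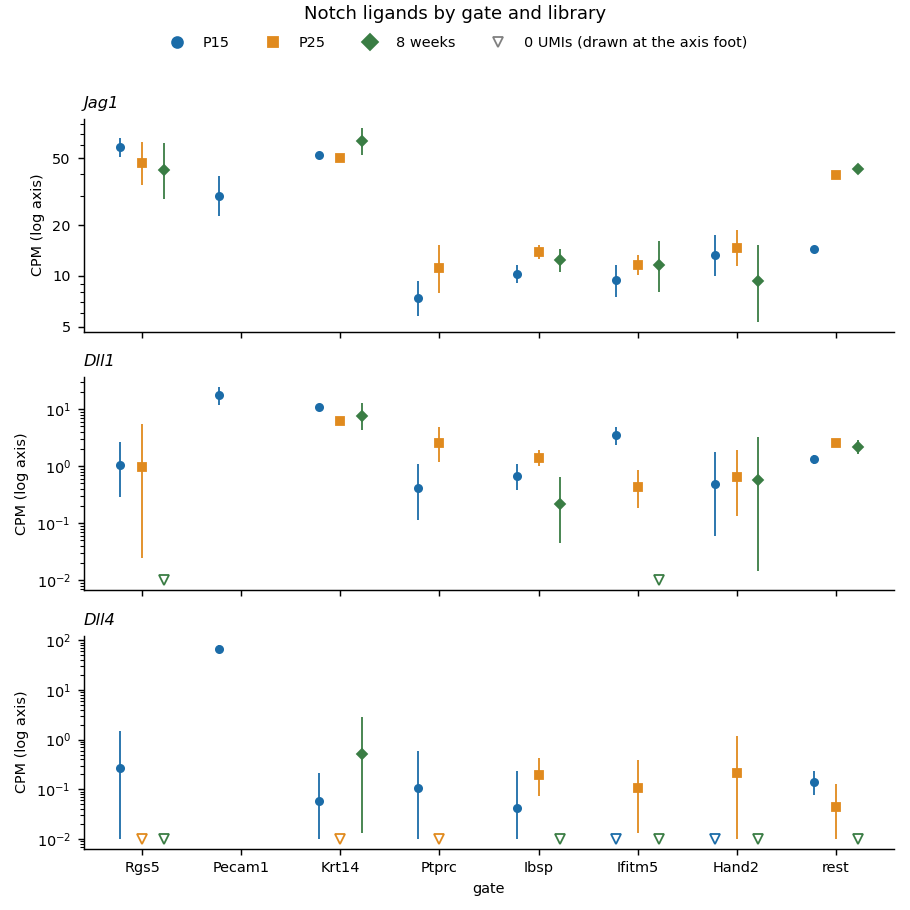
Levels of the ligands Jag1, Dll1 and Dll4 (CPM, log axis) by gate (horizontal axis) and library (colours), with Poisson 95% intervals; sums of under 20 cells are not drawn and open triangles mark 0 UMIs. Dll4 had 66.5 CPM in the Pecam1 gate at P15 and at most 0.515 CPM in the other gates drawn, and Jag1 was at 42.7 to 62.9 CPM in the Rgs5 and Krt14 gates, with the ungated rest at 14.4 to 42.9 CPM.

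The Pecam1 gate was set against the mesenchymal gates to ask how the endothelial cells differ. Its only sum of 20 or more cells was P15, so the values describe 171 cells of 1 library, and the test assumes that this sum varies like the other gates. Of the 10 members, 4 were called higher, against 11.0% of all genes higher and 5.72% lower. They were the receptor Notch1 and the ligands Dll4, Dll1 and Jag1.

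Dll4, the ligand of sprouting and arterial endothelium, had 66.5 CPM (122 UMIs) in the Pecam1 gate at P15 and 0 to 0.216 CPM (0 to 6 UMIs) in the mesenchymal sums. It passed the low-count filter only through the Pecam1 sum, so its call was bound to follow, the count above is no support, and it is described without a test. The 9 and 6 cells of P25 and 8 weeks had 118 and 58.7 CPM, from 23 and 4 UMIs. Dll4 was thus found in the Pecam1 gate of every library and was near 0 in all gates besides it.

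Notch1 had 166 CPM in the Pecam1 gate at P15, and 160 and 279 CPM in the few later cells, against 3.56 to 20.4 CPM in the mesenchymal gates (log2 fold change 3.68 ± 0.38, edgeR adjusted p = 9.39e-06). Dll1 had 17.4 CPM against 0 to 3.51 CPM (log2 fold change 3.97 ± 0.87, edgeR adjusted p = 0.00583). Jag1 had 29.98 CPM against 9.34 to 14.7 CPM (log2 fold change 0.97 ± 0.28, edgeR adjusted p = 0.0268). Jag1 was no longer called under 4 of the 12 alternatives, and without the 8-week library its adjusted p was 0.0667. Of the 171 cells at P15, 116 had a Notch1 UMI and 64 a Dll4 UMI, and 52 had both.

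Hey1 had 50.1 CPM and was not called (log2 fold change 1.25 ± 0.44, edgeR adjusted p = 0.0709), although it was called by DESeq2 (adjusted p = 0.0458). Hes1 had 148 CPM, Notch2 20.7 CPM, and Notch3 and Heyl 1.64 CPM each (3 UMIs). Hey2 had 1.09 CPM (2 UMIs) at P15, and 25.7 and 29.4 CPM from 5 and 2 UMIs in the later cells. The mural pair of Notch3 and Heyl was thus near 0 in the Pecam1 gate.

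The Krt14 gate, meant to hold epithelial cells, was compared with the mesenchymal gates. The markers checked do not tell which epithelium its cells came from. Of its 2024, 1147 and 133 cells in order of age, 879, 759 and 86 had at least 50 Krt14 UMIs. Of the 10 members, 4 were higher and 1 lower, where 20.6% of all genes were higher and 16.3% lower. Notch1, Jag1, Dll1 and Hes1 were higher, and the target Hey1 was lower.

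Notch1 had 58.3, 60.9 and 129 CPM in the Krt14 gate in order of age (log2 fold change 2.99 ± 0.28, edgeR adjusted p = 3.18e-06). Jag1 had 52.0, 50.1 and 62.9 CPM (log2 fold change 2.18 ± 0.16, edgeR adjusted p = 2.40e-07). Dll1, a ligand near 0 in most mesenchymal sums, had 11.1, 6.32 and 7.73 CPM (log2 fold change 3.24 ± 0.63, edgeR adjusted p = 0.00140). For each of the 3 genes, all Krt14 sums lay above all mesenchymal sums.

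Hes1 had 218, 149 and 182 CPM in the Krt14 gate (log2 fold change 1.26 ± 0.23, edgeR adjusted p = 8.57e-04). Hey1 had 9.13, 4.61 and 3.09 CPM against 3.74 to 56.0 CPM in the mesenchymal gates (log2 fold change -1.49 ± 0.34, edgeR adjusted p = 0.00369). Hes1 and Hey1, both targets of the pathway, were therefore on opposite sides of the mesenchymal mean in this gate. The Ifitm5 gate, itself mesenchymal, had 84.9, 127 and 211 CPM of Hes1 and 10.6, 5.55 and 3.74 CPM of Hey1. High Hes1 with low Hey1 was thus not particular to the Krt14 gate. Without P25, Hey1 was not called (edgeR adjusted p = 0.105).

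Notch3 had 9.69, 16.8 and 14.4 CPM in the Krt14 gate and was not called (log2 fold change 1.71 ± 0.72, edgeR adjusted p = 0.0788). With the library as a replicate block it was called, at a log2 fold change of 2.02 (edgeR adjusted p = 0.0225). The Hand2 gate had 15.3, 13.0 and 14.6 CPM of Notch3, near the Krt14 gate, while the Ibsp and Ifitm5 gates had 0.680 to 6.77 CPM. Notch2 had 47.0, 23.5 and 12.9 CPM and was not called (edgeR adjusted p = 0.922). Of 2024 cells at P15, 741 had a Notch1 UMI, 786 a Jag1 UMI and 464 both, so receptor and ligand were often detected under the same barcode. The part of depth, of doublets and of RNA from other cells in this overlap was not tested.

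**Figure D3:**
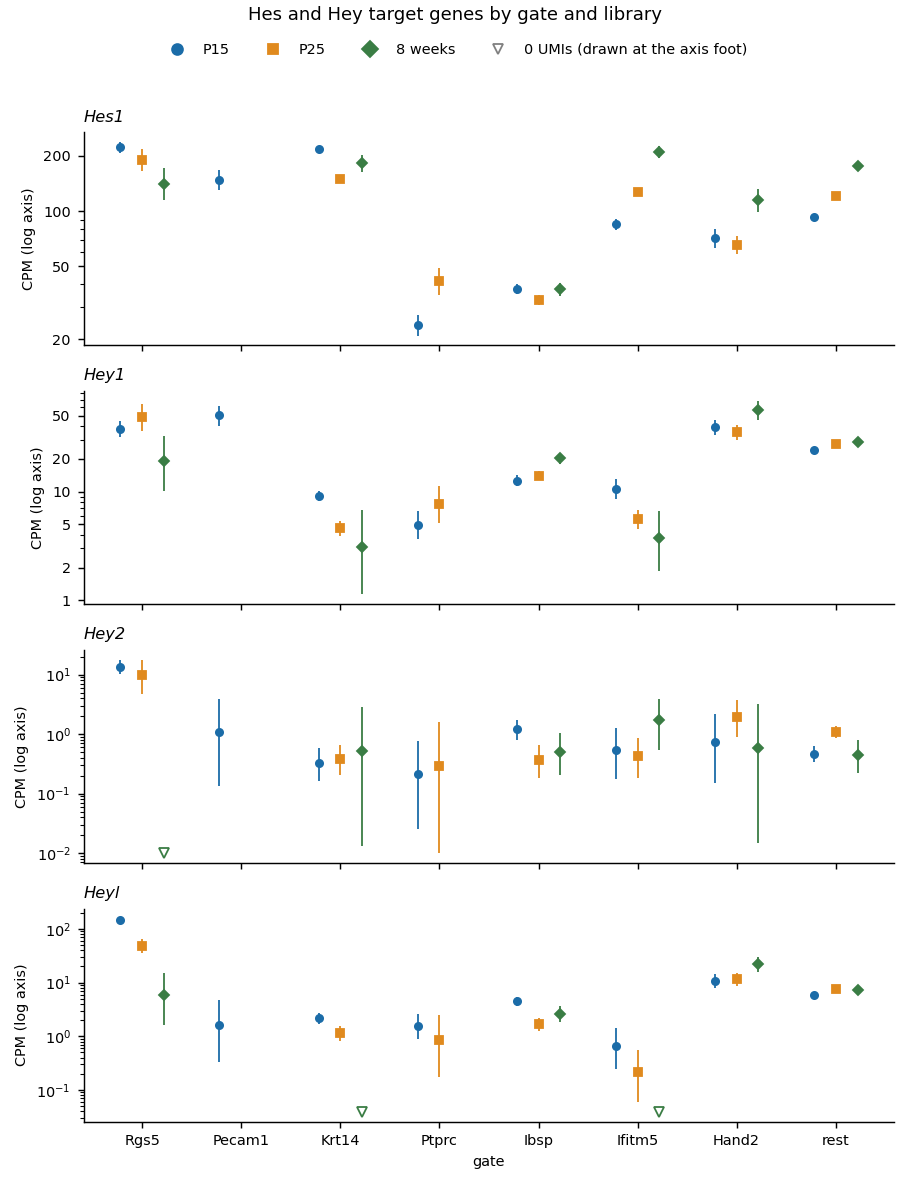
Levels of the target genes Hes1, Hey1, Hey2 and Heyl (CPM, log axis) by gate (horizontal axis) and library (colours), with Poisson 95% intervals; sums of under 20 cells are not drawn and open triangles mark 0 UMIs. Hes1 lay at 32.9 to 37.7 CPM in the Ibsp gate and at 84.9 to 211 CPM in the Ifitm5 gate, whereas Hey1 lay at 35.3 to 56.0 CPM in the Hand2 gate.

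The Ptprc gate of immune cells was compared in the same way, with P15 and P25. Of the 10 members, 2 were higher and 2 lower, where 25.8% of all genes were higher and 20.5% lower, so the members' count was not above that of all genes. Notch1 had 55.7 and 51.3 CPM (log2 fold change 2.44 ± 0.32, edgeR adjusted p = 2.67e-05) and Notch2 50.6 and 95.9 CPM (log2 fold change 1.32 ± 0.34, edgeR adjusted p = 0.00543). Hes1 had 24.0 and 41.5 CPM (log2 fold change -1.21 ± 0.31, edgeR adjusted p = 0.00573) and Hey1 4.97 and 7.73 CPM (log2 fold change -1.40 ± 0.41, edgeR adjusted p = 0.0124). Notch3, Hey2 and Heyl were not called. Without P25, 1 of the 4 members, Notch1, was called, while the log2 fold changes of Notch2, Hes1 and Hey1 were 1.19, -1.41 and -1.52 with edgeR adjusted p of 0.184, 0.107 and 0.149.

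The Ptprc gate mixes immune cell types, and the members differed among them. At P15, 273 cells with at least 2 Csf1r UMIs, a receptor gene of macrophages and osteoclast precursors, had 43.6 CPM of Notch1 and 49.6 CPM of Notch2. The 53 cells with at least 2 Cd79a UMIs, a B-cell gene, had 30.9 and 18.2 CPM, and 60.0 CPM of Hes1. The 426 cells with neither had 70.3 CPM of Notch1 and 55.2 CPM of Notch2. At P25 the 157 Csf1r cells had 98.3 CPM of Notch2 and 47.6 CPM of Notch1.

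The Ifitm5 gate took cells by Ifitm5 with no Ibsp minimum, and the Ibsp gate took Ibsp cells below the Ifitm5 minimum. The cementoblast alpha list without Ibsp (Dmp1, Enpp1 and Spp1) summed to 1633, 1778 and 2382 CPM in the Ibsp gate. It summed to 4478, 5358 and 9261 CPM in the Ifitm5 gate, so the gates differed in more than Ifitm5. Dmp1 is also in the beta list, and the paper treats it as a marker of all cementoblasts. Spp1 is not among the markers the paper lists for its alpha cluster. The sum therefore does not tell alpha from beta cells. Of the 10 members, 1 was lower in the Ibsp gate and none was called higher by edgeR, where 0.525% of all genes were higher and 0.802% lower. At an unadjusted p under 0.05, 3 members were higher and 1 lower, and DESeq2 called 1, the same gene. This was Hes1, a target that keeps progenitors from differentiating in several tissues.

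Hes1 had 37.7, 32.9 and 37.5 CPM in the Ibsp gate in order of age. In the Ifitm5 gate it had 84.9, 127 and 211 CPM. The Hand2 gate had 71.2, 65.3 and 114 CPM and the ungated rest 93.5, 121 and 175 CPM, so the Ibsp gate was the lowest of these at each age. The Ifitm5 gate was higher in 3 of 3 libraries, and the log2 fold change of the Ibsp gate was -2.19 ± 0.31 (edgeR adjusted p = 0.00683). Of 13 alternatives, 11 kept the call. Without P25 the adjusted p was 0.582, when none of all genes was called, and without 8 weeks it was 0.0741, with log2 fold changes of -2.17 and -1.82. With the library as a block, 534 genes were called in all, against 187.

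The share of cells with a Hes1 UMI, thinned to 3000 UMIs, was 7.38% (6.09 to 8.84%), 6.18% (5.15 to 7.35%) and 8.397% (6.95 to 10.0%) in the Ibsp gate and 15.5% (12.3 to 19.1%), 24.1% (20.9 to 27.5%) and 31.2% (24.8 to 38.1%) in the Ifitm5 gate. The intervals of the 2 gates did not overlap at any age. Cells below 3000 UMIs were left out, at 8 weeks 85 of 1395 in the Ibsp gate and 1 of 200 in the Ifitm5 gate. Unthinned, the shares were 24.0%, 19.9% and 16.3% in the Ibsp gate and 41.8%, 62.2% and 58.5% in the Ifitm5 gate. The lowest thinned share among gates of 20 or more cells was that of the Ptprc gate at P15, with 4.77%.

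The Ibsp gate itself held Hand2 cells at the later ages. Its cells with at least 2 Hand2 UMIs numbered 46, 872 and 674 and had 35.5, 21.1 and 21.1 CPM of Hes1, while those below 2 had 37.7, 43.1 and 56.8 CPM. Both parts were below the Ifitm5 gate in every library. Genes that tissue dissociation induces, such as Fos, were also followed. Their summed level was 8024, 8086 and 9469 CPM in the Ifitm5 gate and 9616, 8255 and 7553 CPM in the Ibsp gate. In Ifitm5 cells below the median Fos share Hes1 stood at 70.3, 94.4 and 168 CPM, and in those at or above it at 98.4, 155 and 245 CPM. The part of dissociation in the Hes1 difference was not tested.

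No other member was called between the Ibsp and Ifitm5 gates. Heyl had 4.53, 1.68 and 2.62 CPM in the Ibsp gate and 0.658, 0.216 and 0 CPM in the Ifitm5 gate (edgeR adjusted p = 0.222). Hey1 had 12.6, 14.0 and 20.3 CPM against 10.6, 5.55 and 3.74 CPM (edgeR adjusted p = 0.275). Notch1 had 12.5, 13.7 and 13.4 CPM against 6.91, 3.56 and 5.10 CPM (edgeR adjusted p = 0.199). These 3 genes were higher in the Ibsp gate in 3 of 3 libraries, on the side opposite to Hes1, without passing the test.

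**Figure D4:**
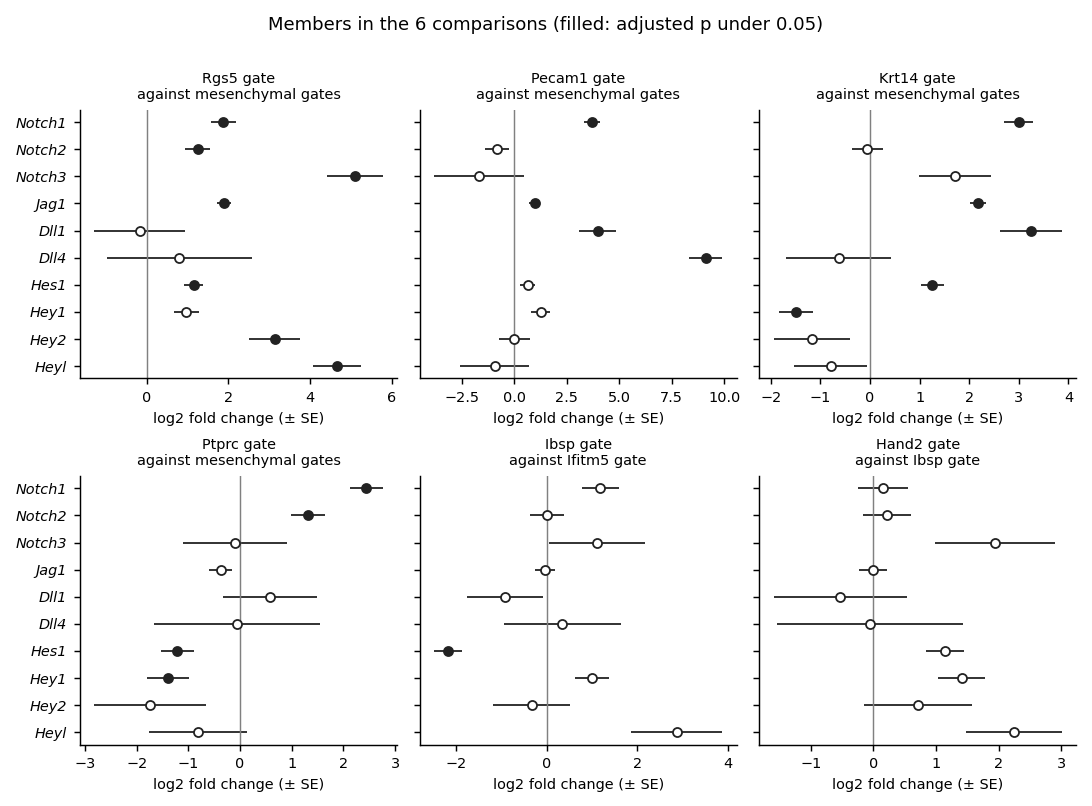
Log2 fold change of each member (horizontal axis, ± SE) in the 6 comparisons between gates, from edgeR; filled points passed the adjusted p threshold. Hey2 in the Rgs5 and Dll4 in the Pecam1 panel passed the low-count filter only through that gate. The Rgs5 panel has 7 filled points, and Hes1 alone is filled in the Ibsp against Ifitm5 panel, at -2.19.

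The Hand2 gate was compared with the Ibsp gate to set Hand2 cells against Ibsp cells. The periapical list without Hand2 summed to 1347, 1532 and 1538 CPM in the Hand2 gate and to 55.9, 816 and 958 CPM in the Ibsp gate, so the Ibsp gate held this signature too at the later ages, when 872 of its 1955 and 674 of its 1395 cells had at least 2 Hand2 UMIs. By edgeR 0 of the 10 members were called, where 0.170% of all genes were higher and 0.489% lower. At an unadjusted p under 0.05, 3 members were higher (Hes1, Hey1 and Heyl), and DESeq2 called 2 of them, Hes1 and Hey1. Hey1 had 39.3, 35.3 and 56.0 CPM in the Hand2 gate against 12.6, 14.0 and 20.3 CPM in the Ibsp gate (log2 fold change 1.41 ± 0.37, edgeR adjusted p = 0.105, DESeq2 adjusted p = 0.00979).

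Hes1 had 71.2, 65.3 and 114 CPM in the Hand2 gate (log2 fold change 1.14 ± 0.30, edgeR adjusted p = 0.104, DESeq2 adjusted p = 0.0152). Heyl had 10.9, 11.7 and 22.2 CPM (log2 fold change 2.24 ± 0.77, edgeR adjusted p = 0.258). The 3 targets were higher in the Hand2 gate than in the Ibsp gate in 3 of 3 libraries. For Hes1, however, the Hand2 gate lay below the Ifitm5 gate and the ungated rest at each age. Part of the Ibsp gate carried Hand2 as well, and the library as a block raised the genes called in all from 93 to 318 without a member among them.

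Within the Hand2 gate at P15, 83 of 209 cells had a Hey1 UMI and 16 a Heyl UMI, and 14 had both. At P25 these were 86, 13 and 10 of 252 cells, and at 8 weeks 58, 15 and 9 of 151. Heyl thus came mostly from cells in which Hey1 was also detected, and the part of depth in this overlap was not tested. The mural list summed to 297 to 382 CPM in this gate, above the Ibsp gate's 239 to 287 CPM, and its part in the Heyl level was not tested.

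The order of the gates can be read for each gene over the sums of 20 or more cells. Notch1 was highest in the Pecam1 gate, followed by the Krt14, Ptprc and Rgs5 gates, whose ranges of 58.3 to 129, 51.3 to 55.7 and 14.7 to 62.0 CPM overlapped in part. The Hand2, Ibsp and Ifitm5 gates came last at 12.1 to 20.4, 12.5 to 13.7 and 3.56 to 6.91 CPM. Notch2 had no such order, since the ranges of the Rgs5 gate (45.7 to 107 CPM), the Ptprc gate (50.6 to 95.9 CPM) and the ungated rest (36.2 to 78.0 CPM) overlapped. Among the mesenchymal gates, too, its ranges overlapped, at 27.9 to 38.1 CPM in the Hand2, 25.5 to 30.7 CPM in the Ibsp and 19.1 to 30.6 CPM in the Ifitm5 gate.

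Age was followed within each gate as the ratio of 8 weeks to P15. A gene was called when it differed by at least 2-fold with Poisson intervals that did not overlap, among genes with 10 CPM or more at 1 of the ages and 20 UMIs in all. These ratios compare 1 library with another and carry no test of age. P25 is given between them as a level.

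In the ungated rest, which held 7428, 4646 and 3233 cells, 6 members could be read, and 2 were called higher at 8 weeks, where 6.10% of 8968 genes were higher and 3.86% lower. Jag1 went from 14.4 to 39.5 and 42.9 CPM, a 2.99-fold ratio (2.76 to 3.24), and Notch2 from 36.2 to 59.8 and 78.0 CPM, a 2.15-fold ratio. Hes1 went from 93.5 to 121 and 175 CPM, a 1.88-fold ratio that did not reach 2-fold. Levels of all 3 genes were higher at each later age in these cells. Notch1, Notch3 and Hey1 stayed within 1.29-fold.

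The dissociation genes followed the same order, with 9785, 13582 and 22841 CPM in the ungated rest. In its cells below the median Fos share, Jag1 stood at 12.9, 27.5 and 39.0 CPM, Notch2 at 33.0, 52.9 and 73.8 CPM and Hes1 at 69.3, 75.0 and 139 CPM. In cells at or above it, Jag1 stood at 15.4, 49.5 and 45.9 CPM, Notch2 at 38.5, 65.5 and 81.1 CPM, and Hes1 at 110 to 203 CPM. Fos itself stood at 1746, 1549 and 3672 CPM in the cells below its median share, so the split did not make the ages alike in it, and the part of dissociation in these levels was not tested. Since the rest is a mixture, changes in its make-up and in its cells cannot be told apart.

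**Figure D5:**
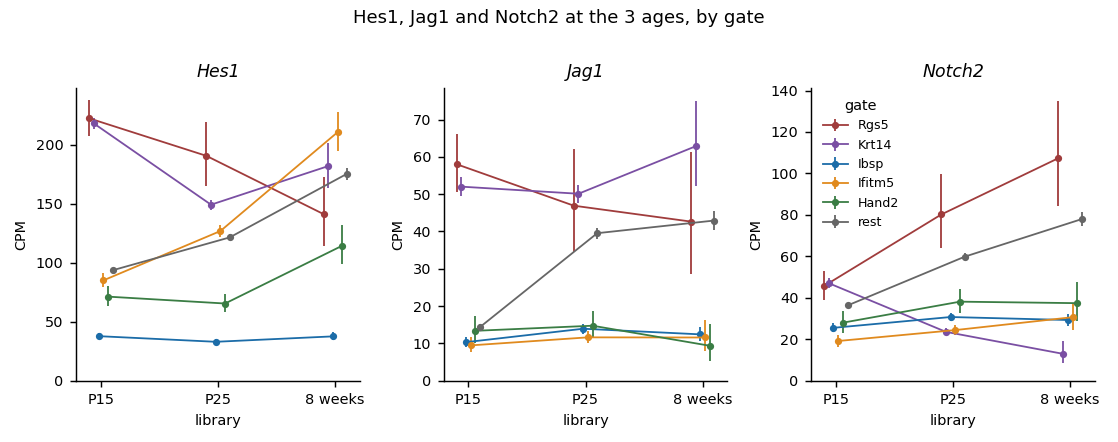
Levels (CPM, with Poisson 95% intervals) of Hes1, Jag1 and Notch2 in the libraries of the 3 ages (horizontal axis), with a line for each gate that had 20 or more cells at all ages. Hes1 was higher with age in the Ifitm5 gate (84.9 to 211 CPM) and level in the Ibsp gate as a whole (37.7 to 37.5 CPM). Jag1 was higher with age in the ungated rest (14.4 to 42.9 CPM).

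In the Ifitm5 gate, 4 members could be read, 1 called higher and 1 lower, where 2.96% of 8146 genes were higher and 4.97% lower. Hes1 went from 84.9 to 127 and 211 CPM, a 2.48-fold ratio (2.23 to 2.76), and Hey1 from 10.6 to 5.55 and 3.74 CPM, a 2.85-fold lower level at 8 weeks. Hes1 was thus higher and Hey1 lower at 8 weeks in the Ifitm5 gate. Its cementoblast alpha list stood at 4478, 5358 and 9261 CPM over the same ages and its beta list without Ifitm5 at 670, 1413 and 1143 CPM. Both lists hold Dmp1. The odontoblast gene Dspp stood at 37.0, 17.1 and 0 CPM, and the part of these markers in the ratios was not tested. In the Ibsp gate 5 members were read and 0 called, where 2.41% of 8502 genes were higher and 3.15% lower. Their ratios lay within 1.61-fold, and Hes1 was at 37.7 and 37.5 CPM in the gate as a whole. As given above, Hes1 was higher with age in its cells below 2 Hand2 UMIs and lower in the others. The part of this make-up in the ratio was not tested.

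In the Hand2 gate, 7 members were read and 1 called, Heyl, with 2.04-fold more at 8 weeks (10.9 to 22.2 CPM), where 5.88% of 8709 genes were higher and 4.23% lower. The call was lost with TMM-scaled totals. Hes1 and Hey1 had ratios of 1.61 and 1.43.

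In the Krt14 gate, 6 members were read, 1 higher and 1 lower, where 6.31% of 8959 genes were higher and 16.4% lower. Notch1 went from 58.3 to 60.9 and 129 CPM, a 2.21-fold ratio, and Notch2 from 47.0 to 23.5 and 12.9 CPM, 3.65-fold lower. Jag1 and Hes1 stayed within 1.21-fold. The epithelial list in the gate went from 3640 to 7565 and 8020 CPM over the same ages, and its part in these ratios was not tested. With all UMI minima doubled, the Notch1 ratio was 0.73 on the log2 scale, against 1.14, and was no longer called.

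In the Rgs5 gate, 8 members were read, 4 lower and 1 higher, where 5.62% of 9270 genes were higher and 7.50% lower. Notch3 was 85.8-fold lower at 8 weeks (29.3 to 417, from 3 UMIs), Heyl 24.7-fold lower and Notch1 4.22-fold lower. Hey2 was at 0 UMIs, which makes it at least 2.44-fold lower by the counting interval of the ratio and 3.11-fold lower against a floor of 3 UMIs. Notch2 was 2.35-fold higher. These ratios go with the mural list's own 2259 and 516 CPM, and with the higher Ibsp, described above.

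Other genes of the pathway were taken from a list of 48, of which 45 could be tested. In the Rgs5 gate 2 were higher, where 3.63% of all genes were, so the share lay near that of all genes. They were Nrarp, a target that feeds back on the receptor complex, and Maml2, a coactivator. Nrarp had 22.2, 3.91 and 0 CPM and at most 1.75 CPM in the mesenchymal gates (log2 fold change 3.75 ± 0.61). It passed the low-count filter only through Rgs5, Pecam1 and Krt14 sums, none of them mesenchymal, so its calls are no support. Maml2 had 20.3, 18.6 and 20.6 CPM (log2 fold change 1.46 ± 0.34, edgeR adjusted p = 0.0236). The list's median log2 fold change was -0.02. Nrarp ran with age like Notch3 and Heyl in this gate, while Maml2 was level.

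In the Pecam1 gate 9 of the 45 were called higher and 2 lower, against 11.0% and 5.72% of all genes, in the 1 sum of that gate. The largest were the fringe enzyme gene Mfng, with 76.9 CPM against 0 to 0.219 CPM in the mesenchymal gates, Nrarp, with 54.5 CPM, and the ligand Jag2, with 29.98 CPM. Nrarp had a log2 fold change of 5.88 ± 0.69, under the limit given above. Mfng passed the low-count filter only through Pecam1 and Ptprc sums, and Jag2 only through Krt14, Pecam1 and Ptprc sums. Their calls in these gates are therefore no support. The receptor of endothelium Notch4 had 54.5 CPM (log2 fold change 4.87 ± 0.64, edgeR adjusted p = 9.98e-05). The 2 lower genes were Numbl, a Notch inhibitor of the Numb family, and Mib2, a ligase that acts on ligands, at log2 fold changes of -2.40 and -1.52.

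In the Krt14 gate 3 of the 45 were higher and 10 lower, against 20.6% and 16.3% of all genes, so the share that was higher lay below that of all genes. Jag2 had 15.9, 41.1 and 29.9 CPM (log2 fold change 5.94 ± 0.56) and Nrarp 17.4, 44.9 and 57.2 CPM (log2 fold change 5.78 ± 0.55). Both lay above every mesenchymal sum, but no mesenchymal sum brought either past the low-count filter, so their calls are no support. Nrarp was called higher in the Rgs5, Pecam1 and Krt14 gates, the only gates that brought it past this filter. Dlk2, a noncanonical ligand, was higher by 2.48. The largest lower values were those of Dtx4 and Dtx1 of the Deltex family and of Hes6, at log2 fold changes of -2.36, -1.92 and -1.58. No Krt14 sum brought Dtx1 past the low-count filter, so its call is no support.

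In the Ptprc gate 15 of the 45 were higher and 8 lower, against 25.8% and 20.5% of all genes. The largest higher values were those of Mfng, Lfng and Dtx3l, at log2 fold changes of 7.51, 3.79 and 2.49. The largest lower ones were those of Dlk1, Numbl and Dtx1, at -3.26, -2.33 and -1.59. No Ptprc sum brought Dtx1 past the low-count filter, so its call here is no support either. Between the Ibsp and Ifitm5 gates edgeR and DESeq2 both called 0 of the list, and 1 gene was higher and 1 lower at an unadjusted p under 0.05. Between the Hand2 and Ibsp gates edgeR called 0, with 4 lower at an unadjusted p under 0.05, and DESeq2 called 1 lower.

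Genes whose levels ran most like a member's were sought over the 18 sums by Pearson's r of log2(CPM + 10), among 9785 genes, as a description. The sums share libraries and their differences in depth. Notch3 was closest to Ebf2 (0.93), Heyl (0.93) and Steap4 (0.92), and Heyl to Foxs1 (0.98), Hic1 (0.95) and Pde3a (0.95). Outside the Rgs5 sums of P15 and P25, Notch3 was at most 16.8 CPM and Heyl at most 22.2 CPM. Those Rgs5 sums therefore weigh heavily in the matches of both genes. Hey1 was closest to Myef2 (0.92), Fhl1 (0.91) and Plpp3 (0.90). Notch2 was closest to Man2b2 (0.93), C2 (0.90) and Nfkbiz (0.90), Notch1 to Pcnt (0.94), Hist1h1e (0.92) and Smc2 (0.90), and Jag1 to Zak (0.91), Mnd1 (0.89) and Tacc2 (0.86). Hes1 had no close match, with Pcdh7, Wrnip1 and Gtf3c1 between 0.74 and 0.75. For Dll4 the closest genes (Unc45b, Gpihbp1 and Sele, 1.00 each) rest on the Pecam1 sum alone.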

How the data were processed

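Pthrp-mCherry+ cells from mandibular molars were measured by 10x Chromium 3′ (v3.1) single-cell RNA sequencing, 1 library per age. The authors deposited raw UMI counts per gene and cell from Cell Ranger, without normalization. The submitters' processing notes name Cell Ranger 6.1.2 and mm10, whereas the header of the P25 file names 6.0.1. Genes were joined by identifier, and UMIs outside the shared genes were 0.272%, 4.80% and 0.189% of the P15, P25 and 8-week libraries. The study's P6 library was not analysed here. All deposited cells were kept, and no doublet caller was run. Cells passing the minimum of 2 or more of the 4 lineage genes (127, 34 and 0) were left out.

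UMIs were summed per gate and library. The 18 sums of at least 20 cells were fitted together with edgeR 4.0.16 in R 4.3.3 (TMM normalization, filterByExpr, robust quasi-likelihood test, Benjamini-Hochberg adjustment over 14097 genes, adjusted p under 0.05). The SE is the log2 fold change divided by the square root of F. TMM factors lay between 0.778 and 1.24. The 3 ages stand as replicates of a gate, so p-values measure the spread over ages and libraries, and no cultures or animals were told apart. Gates of a library come from the same pooled animals. Deviations of the Krt14, Ibsp, Ifitm5 and Hand2 sums of a library from the gate means correlated in 6 pairs each. The values were 0.179 to 0.507 for P15, 0.421 to 0.653 for P25 and 0.114 to 0.436 for 8 weeks. The library thus pairs these sums and was an alternative block. The Rgs5, Pecam1 and Ptprc sums were not part of this check.

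Depth differed between libraries, with 188157997, 169712592 and 46234378 UMIs, and the age ratios used a floor of 3 UMIs. Levels have exact Poisson intervals and shares of cells exact binomial (Clopper-Pearson) ones, all with 95% confidence. Thinned shares were taken from cells with at least 3000 UMIs, each thinned to that number. Cells with fewer UMIs were left out of them. The scripts were tested on simulated data. Alternatives were DESeq2 1.42.0, its size factors, no low-count filter, the block, UMI minima halved or doubled, lineage gates without Ibsp, Ifitm5 or Hand2 cells, a cell filter (500 genes or more, mitochondrial UMIs no more than 20%), removal of the 6% of cells with most UMIs, joining by symbol (20843 genes), TMM scaling of ratios and each library left out. An Rgs5 minimum of 20 and a Krt14 minimum of 50 UMIs were chosen after seeing the data. The members, gates and gene lists were chosen with earlier results of these data known.

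Named were all 10 members, up to 3 pathway genes of largest fold change called in each direction, markers of the gates, and for each member at 20 CPM or more in a sum the 3 genes most like it. Notch4 falls outside this rule and was named after its values were seen. Gene positions are from GENCODE M21 (GRCm38). Python 3.11.15, numpy 2.4.6, scipy 1.17.1, pandas 2.3.3 and matplotlib 3.10.9 were used.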

Additional observations from a re-analysis of the deposited data

Results flagged for a closer look

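Members that were called in opposite directions with age in different gates are listed here, as log2 ratios of 8 weeks to P15. Each ratio compares 1 library with another, and the difference between gates was not tested. Notch1 had -2.08 in the Rgs5 gate and 1.14 in the Krt14 gate. Notch2 had 1.23 in the Rgs5 gate and 1.11 in the ungated rest, but -1.87 in the Krt14 gate. Heyl had -4.63 in the Rgs5 gate and 1.03 in the Hand2 gate. The mural list of the Rgs5 gate summed to 2259 CPM at P15 and 516 CPM at 8 weeks, and the epithelial list of the Krt14 gate to 3640 and 8020 CPM.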

How the results depend on the processing

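Limits come first. Each age is 1 library, the P25 file header names another software version, and the gates rest on few cells for Rgs5 (50 and 55 after P15) and on 1 sum for Pecam1. Dll1 had few UMIs in mesenchymal sums, so its folds depend on smoothing. Leaving out P15 gave no Pecam1 value. The cause of the differences below was not tested.

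Counts are of genes called in all unless members are named. DESeq2 called 596 genes between the Ibsp and Ifitm5 gates (187 by edgeR), and 392 genes and 2 members between the Hand2 and Ibsp gates (93 and 0). The library as a replicate block gave 534 and 318 genes. It changed no other call of a member than that of Notch3 in the Krt14 gate. With UMI minima halved, the Rgs5 comparison gave 4 members and 310 genes (7 and 581), Pecam1 2 members and 556 genes (4 and 2355), Krt14 2383 genes (5208), Ibsp against Ifitm5 283 genes, and Hand2 against Ibsp 1 member and 163 genes. With minima doubled, Ibsp against Ifitm5 gave 2 members and 283 genes, and Hand2 against Ibsp 177 genes. Lineage gates without Ibsp, Ifitm5 or Hand2 cells gave 958 genes for Rgs5. Without the 6% of cells with most UMIs, Hand2 against Ibsp gave 1 member and 231 genes.

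Leaving out 1 library each gave 1 to 7 members and 6 to 267 genes for Rgs5 (lowest without P25), 4 members and 1286 to 2205 genes for Pecam1 (lowest without P25), 4 to 7 members and 1577 to 5532 genes for Krt14 (1577 without P25 and 2478 without 8 weeks), 1 to 4 members and 2876 to 6190 genes for Ptprc (lowest without P25), 0 to 1 members and 0 to 341 genes for Ibsp against Ifitm5 (0 without P25 and 18 without 8 weeks), and 0 members and 1 to 35 genes for Hand2 against Ibsp (1 without P25). Notch2 in the Krt14 gate, not called at -0.06, had 0.039 under the block, 0.30 without the 6% of cells with most UMIs, and -0.67 to 0.30 with a library left out (called at -0.67 without P15, edgeR adjusted p = 0.0499).

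For 8 weeks against P15, members called went from 2 to 1 in Krt14 and in the ungated rest with doubled minima, and from 2 to 1 in Ifitm5 without the 6% of cells with most UMIs. In Hand2 they went from 1 to 3 with halved minima and to 0 with doubled minima or TMM-adjusted totals. Notch1 and Dll1 in the Pecam1 gate, Notch1, Jag1, Dll1 and Hes1 in the Krt14 gate, Notch1 in the Ptprc gate and Jag1 in the Rgs5 gate stayed called under every alternative that gave them a value.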
